A study of Mus musculus with 6 samples.

Results

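The 10 genes described here encode transcription factors of T lineage commitment: Gata3, Tcf7, Lef1, Bcl11b, Tcf12, Runx1, Runx3, Ets1, Tox and Id3. They were chosen by name, with earlier results of these data known, and all 10 were found among the 40808 gene IDs of the count table and passed the filter on low counts, which left 14110 genes to test. The table holds 6 libraries of RNA 3′ ends from the spleen of mice that had received a bone marrow transplant, labelled as leukaemia cells, 3 labelled no Dox (replicates 4, 5 and 6) and 3 labelled Dox (replicates 10, 11 and 12). Every library of both groups came from transplanted mice. The labels do not give the genotype of the graft, the strain, age or sex of the mice, what Dox acted on, its dose or its duration, or whether an RNA sample came from 1 animal or from several, so p-values measure the spread between these libraries. The study's title concerns control of NOTCH receptors by UVRAG, ITCH and the ESCRT machinery.

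T cell precursors are committed to their lineage by a sequence of transcription factors. NOTCH signalling in early thymic progenitors induces Tcf7, whose product TCF-1, with GATA3, opens and activates T cell genes, and BCL11B then closes access to other fates. LEF1 is the close relative of TCF-1, HEB (the product of Tcf12) is a DNA-binding E protein, ID3 binds E proteins and keeps them off DNA, RUNX1 and RUNX3 bind DNA with the shared partner CBFB, ETS1 is an ETS family factor of lymphocytes, and TOX is an HMG-box protein needed for CD4 T cell and innate lymphoid development. Several of the 10 are not restricted to T cells: Ets1, Runx1, Runx3, Tcf12 and Lef1 are also known from B lineage, natural killer or myeloid cells.

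Upstream sequence of GRCm38.p6 came from RefSeq, with 16 promoter windows used for 8 of the 10 genes. Windows of Ets1 and Tox were not analysed here. The 250 bases before an annotated start are shown for 2 genes. They are Gata3, 1 of the 2 genes that fell the furthest with Dox, and Runx3, the gene that rose. For Runx3 the first of 2 annotated starts was used. For Gata3 the window lies inside the RefSeq span of the gene (9857078 to 9887953), not before its outer end. Capitals mark matches to 6 motifs, searched on both strands: TGTGGT for RUNX factors, CCGGAA for ETS factors, AGATAA for GATA factors, CTTTGA for TCF and LEF factors, CAGCTG for E proteins and TGGGAA for RBPJ, the DNA-binding partner of NOTCH.
Gata3, chr2:9878601-9878850, minus strand: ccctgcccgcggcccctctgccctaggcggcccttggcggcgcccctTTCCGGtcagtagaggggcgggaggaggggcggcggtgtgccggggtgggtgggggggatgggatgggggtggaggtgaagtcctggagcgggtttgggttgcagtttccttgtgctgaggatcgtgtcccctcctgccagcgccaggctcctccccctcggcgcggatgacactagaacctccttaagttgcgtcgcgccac
Runx3, chr4:135120395-135120644, plus strand: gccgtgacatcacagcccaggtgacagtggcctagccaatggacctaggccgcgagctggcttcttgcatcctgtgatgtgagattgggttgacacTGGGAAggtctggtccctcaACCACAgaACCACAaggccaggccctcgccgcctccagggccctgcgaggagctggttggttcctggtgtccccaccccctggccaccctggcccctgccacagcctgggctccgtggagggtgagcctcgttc
The Gata3 window held 1 match, to the ETS motif, 203 to 198 bases before the start. The Runx3 window held 2 matches to the RUNX motif, on the minus strand, and 1 to the RBPJ motif, and the window of its second start held 0 matches to the 6 motifs. The RUNX motif was found in 14% of all 32851 RefSeq windows of the same length, with at least 2 matches in 1.27%, and the RBPJ motif in 21.6%. Over the 16 windows of the 8 genes, the ETS motif (12% of all windows) was found in 3, of Gata3, Runx1 and Tcf7, and the TCF and LEF motif (13.8%) in 2, of Bcl11b and Lef1. The E protein motif (13%) was found in 3, of Lef1, Tcf12 and Tcf7, and the GATA motif (10%) in 0. The first 2 windows of Lef1 overlap, so the 16 windows are not all distinct. Both windows of Tcf7 lie inside its RefSeq span, so their matches are not upstream of the whole gene. These matches describe letters only.

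Total counts ran from 5541486 to 8725767 per library, and 3 counts corresponded to between 0.309 and 0.608 normalized CPM (counts scaled to a common total after TMM scaling, the unit of every level below). Summed levels of 12 T cell markers were 2047 to 2159 CPM without Dox and 218 to 306 CPM with Dox. Those of 10 B cell markers were 29.2 to 35.6 and 1407 to 1524 CPM, those of 12 myeloid markers 216 to 222 and 1917 to 2063 CPM, and those of 10 stromal and endothelial markers 420 to 449 and 557 to 737 CPM. Summed levels of 10 erythroid markers were 94380 to 104400 and 133500 to 143500 CPM, and those of 8 natural killer markers 349 to 398 and 14.5 to 26 CPM. The natural killer sum without Dox was nearly all Gzma, a granzyme gene, at 352, 341 and 395 CPM without Dox and 0 in each Dox library; the other 7 summed to 2.88 to 7.90 CPM without Dox and 14.5 to 26 CPM with Dox. Of the 4 natural killer markers tested, 1 passed lower (Gzma) and 1 higher (Nkg7), near the shares over all tested genes given below. Markers at 0 in a whole group were Ly6g (myeloid) and Klre1 without Dox and Gzma with Dox. By test (edgeR), 10 of the 12 T cell markers passed lower with Dox and 10 of 10 B cell markers higher. Of 12 myeloid markers 8 passed higher and 2 lower. Of 10 stromal and endothelial markers 4 passed higher and 2 lower, with a median log2 fold change of 0.34. Beside these, 22.1% of all tested genes passed lower and 23.6% higher. The RNA labelled as leukaemic thus carried T cell markers in both groups, at a lower level with Dox, where the summed B cell and the summed myeloid markers each exceeded them in every library. Y-linked genes had 545 to 801 counts in each library without Dox and 0 in each with Dox. Xist had 193 to 324 counts without Dox and 3347 to 5669 with Dox, so the libraries without Dox held both kinds of RNA. The difference in sex-linked RNA and Dox cannot be told apart. In bulk RNA, fewer cells of a type and less RNA per cell cannot be told apart either, and the part of cell composition in the results below was not tested.

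To ask how the T lineage programme differed between the groups, the 10 genes were read from a comparison fitted over all genes. With Dox, 9 of the 10 were lower and 1, Runx3, was higher (edgeR quasi-likelihood test, adjusted p under 0.05). Among all tested genes, 45.6% passed in either direction, 22.1% lower and 23.6% higher. The median log2 fold change of the 10 was -2.78, beside 0.07 over all tested genes. The sizes spanned a wide range, from a 50.7-fold lower mean for Tcf7 to a 1.43-fold lower mean for Ets1 and a 2.77-fold higher mean for Runx3. In normalized CPM the groups did not overlap for any of the 10 genes, as for 59.6% of tested genes.

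**Figure D1:**
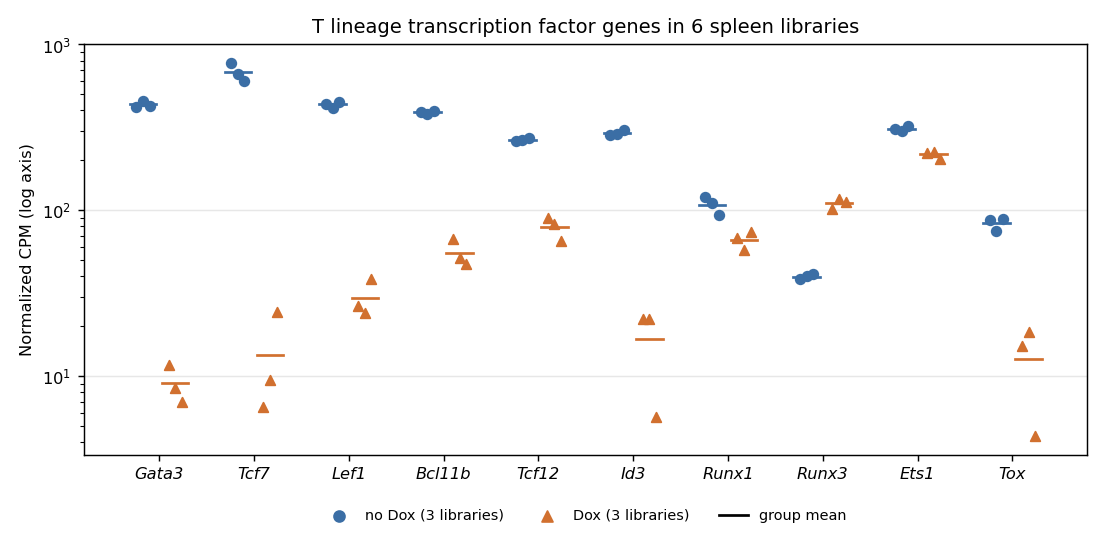
Normalized CPM (log axis) of the 10 genes in each library, circles without Dox and triangles with Dox, with a line at each group mean. Tcf7 had the highest mean without Dox (683 CPM) and fell to 13.5 CPM, Ets1 stayed above 205 CPM in every library, and Runx3 rose from 39.8 to 110 CPM.

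The early factors that open the T cell programme fell the furthest. Tcf7 (Entrez gene 21414, chromosome 11, 52246527 to 52283383) had 777, 667 and 604 CPM without Dox and 6.53, 9.47 and 24.4 CPM with Dox, from 48, 92 and 185 counts in the latter. It was the most abundant of the 10 without Dox and eighth with Dox, and Dox replicate 12 held the highest of the 3 Dox levels. On the log2 scale the change came to -5.67 ± 0.45 (SE, adjusted p = 9.99e-06, edgeR), and 130 of the tested genes fell further. Without Dox replicate 12 it was -6.41. Gata3 (Entrez gene 14462, chromosome 2, 9857078 to 9887953) had 419, 459 and 427 CPM without Dox and 11.7, 8.44 and 6.98 CPM with Dox. Gata3 went from the third place among the 10 genes to last. On the log2 scale the change came to -5.59 ± 0.23 (SE, adjusted p = 5.37e-07, edgeR).

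Lef1 and Bcl11b fell less than Tcf7 and Gata3. Lef1 (Entrez gene 16842, chromosome 3, 131110297 to 131224357) had 440, 415 and 451 CPM without Dox and 26.3, 24.1 and 38.6 CPM with Dox. As for Tcf7, Dox replicate 12 was the highest of its group. The log2 fold change of Lef1 was -3.88 ± 0.22 (SE, adjusted p = 1.87e-06, edgeR), and its mean was 14.7-fold lower. Bcl11b (Entrez gene 58208, chromosome 12, 107910403 to 108004145), whose product seals commitment, had 392, 383 and 397 CPM without Dox and 67.1, 51.4 and 47.3 CPM with Dox. Its levels without Dox varied by 1.89% (coefficient of variation), the least of the 10 genes in that group. Its log2 fold change was -2.82 (SE 0.18, adjusted p = 3.35e-06, edgeR), a 7.07-fold lower mean.

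The E protein gene and its inhibitor both fell, the inhibitor further. Tcf12 (Entrez gene 21406, chromosome 9, 71844252 to 72111893) had 261, 266 and 273 CPM without Dox and 89.8, 82.8 and 65.5 CPM with Dox, a log2 fold change of -1.75 ± 0.17 (SE, adjusted p = 3.48e-05, edgeR). Id3 (Entrez gene 15903, chromosome 4, 136143822 to 136145392), which is induced by antigen receptor signals, had 286, 289 and 306 CPM without Dox and 22.2, 22.0 and 5.67 CPM with Dox. Dox replicate 12, which was highest for Tcf7 and Lef1, was the lowest for Id3. The log2 fold change of Id3 was -4.14 ± 0.43 (SE, adjusted p = 4.7e-05, edgeR), and -3.75 without Dox replicate 12.

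The 2 RUNX genes moved in opposite directions. Runx1 (Entrez gene 12394, chromosome 16, 92601466 to 92826074), which is also needed for blood stem cells and megakaryocytes, had 119, 110 and 93.6 CPM without Dox and 67.8, 57.8 and 73.9 CPM with Dox. The groups stayed apart, and the change in log2 CPM was -0.70 ± 0.18 (SE, adjusted p = 0.0113, edgeR). This call was lost with scaling by library size only (-0.38, adjusted p = 0.1) and without no Dox replicate 4 (-0.66, adjusted p = 0.0563); over 15 alternatives the adjusted p ran from 0.000638 to 0.1. With a trend of fold change with transcript length removed, an alternative chosen after seeing the data, the change was -1.15. Runx3 (Entrez gene 12399, chromosome 4, 135120645 to 135177990), which directs the CD8 T cell fate and is also active in natural killer and myeloid cells, had 38.4, 39.9 and 41.2 CPM without Dox and 102, 118 and 112 CPM with Dox. It was the least abundant of the 10 genes without Dox and second only to Ets1 with Dox. Its change in log2 CPM was 1.47 ± 0.17 (SE, adjusted p = 9.92e-05, edgeR), positive in all 15 alternatives (1.33 to 1.78).

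Ets1 (Entrez gene 23871, chromosome 9, 32636241 to 32757820) changed the least. It had 309, 302 and 321 CPM without Dox and 221, 226 and 205 CPM with Dox. Its change in log2 CPM was -0.51 ± 0.14 (SE, adjusted p = 0.0136, edgeR). With scaling by library size only, which moved the median change over all genes up by 0.31, Ets1 was at -0.20 with an adjusted p of 0.278, and the range of adjusted p over 15 alternatives was 0.000739 to 0.278. With the length trend removed it was at -0.86. Tox (Entrez gene 252838, chromosome 4, 6686353 to 6991557) had 87.7, 75.4 and 89.0 CPM without Dox and 15.1, 18.3 and 4.35 CPM with Dox. Dox replicate 12 was the lowest, as for Id3, at 33 counts. Tox had a log2 fold change of -2.73 (SE 0.42, adjusted p = 0.000565, edgeR).

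**Figure D2:**
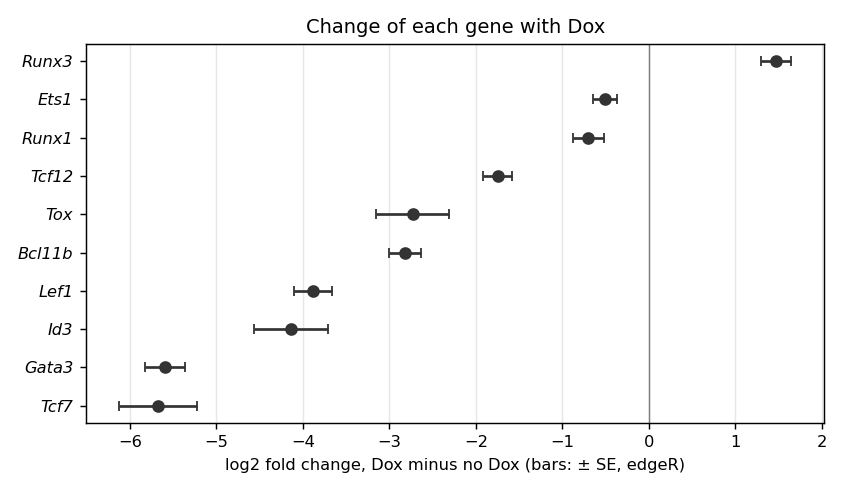
Log2 fold change with Dox against no Dox for each gene (points) with its standard error (bars, edgeR), 3 libraries per group. The changes run from -5.67 for Tcf7 to 1.47 for Runx3, and 9 of 10 lie below 0.

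The order of the genes by level was therefore different in the 2 groups. Libraries of mRNA 3′ ends give about 1 fragment per transcript, so levels in CPM are compared here without division by length. Without Dox the order was Tcf7, Lef1, Gata3, Bcl11b, Ets1, Id3, Tcf12, Runx1, Tox and Runx3. Lef1 and Gata3 overlapped in their library values, as did Ets1 and Id3, and the other neighbours in this order did not. With Dox the order was Ets1, Runx3, Tcf12, Runx1, Bcl11b, Lef1, Id3, Tcf7, Tox and Gata3. Library values of Tcf12, Runx1 and Bcl11b overlapped from one to the next, as did those of Id3, Tcf7, Tox and Gata3. Summed over the 10 genes, levels were 3002 to 3130 CPM without Dox and 584 to 629 CPM with Dox. Libraries with Dox varied more: coefficients of variation were 1.89% to 12.8% without Dox and 4.92% to 71.1% with Dox, the highest in each group for Tcf7.

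Unequal change was also measured within single libraries, as the log2 ratio of 2 genes, for 5 pairs. These ratios do not depend on scaling, apart from a small count added before the log. Tcf7 over Lef1 stood at 0.82, 0.69 and 0.42 in the no Dox libraries and at -1.96, -1.32 and -0.66 in the Dox libraries. Tcf7 transcripts thus outnumbered those of Lef1 in every library without Dox and in none with Dox. Runx1 over Runx3 stood at 1.63, 1.46 and 1.18 in the no Dox libraries and at -0.58, -1.02 and -0.59 in the Dox libraries, so that the more abundant RUNX gene of the pair switched. Tcf12 and Id3 were at near parity without Dox (-0.13, -0.12 and -0.16), whereas Tcf12 exceeded Id3 with Dox (2, 1.90 and 3.47). The ratio of Gata3 to Bcl11b had a mean of 0.15 ± 0.09 without Dox and -2.59 ± 0.11 with Dox, and that of Ets1 to Tox 1.88 ± 0.10 and 4.31 ± 1.02 (SD, 3 libraries each). In each of the 5 pairs the groups stayed apart. The exact two-sided permutation p was 0.1 for each, the smallest that 3 against 3 allows, and 0.1 after adjustment over the 5. The genes of each pair had changed unequally in the comparison above, so this count is no separate result. The share over all pairs of tested genes was not computed.

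Most of the 10 are the leading T cell member of a small gene family, and the make-up of these families was compared as the share of family counts in each library. Gata3 made up 95.4%, 95.6% and 94.1% of the counts of Gata1, Gata2 and Gata3 without Dox and 30.0%, 29.0% and 18.2% with Dox. Gata1, the erythroid and megakaryocyte factor, held 52.3% to 79.8% of that family with Dox although its own level did not pass the test (20.7 ± 2.2 and 22.8 ± 7.7 CPM, SD, n = 3 each; log2 fold change 0.13 ± 0.31 (SE), adjusted p = 0.754, edgeR). In the BCL11 family, Bcl11b held 93.3% ± 1.2 of the counts in the no Dox group and 21.9% ± 2.9 in the Dox group (SD, 3 libraries each). The remainder was Bcl11a, a factor of B lineage and early progenitor cells, which rose from 28.4 ± 5.5 to 196 ± 15 CPM (SD of 3 libraries each; log2 fold change 2.79, adjusted p = 5.55e-06, edgeR).

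In the TCF/LEF family, Tcf7 and Lef1 held 59.8% ± 3.5 and 38.4% ± 3.2 of counts without Dox (SD, 3 libraries), and 9.52% ± 5.22 and 21.8% ± 2.1 with Dox. Tcf7l2, a WNT effector of many tissues, held 1.26% ± 0.54 without Dox and 57.4% ± 3.6 with Dox (SD, 3 libraries each). The family as a whole went from 1139 ± 90 to 135 ± 24 CPM (SD, 3 libraries each). The E proteins differed from this: Tcf12 fell from 52.4% ± 4.1 to 14.4% ± 1.8 of family counts while Tcf4, an E protein of B cells and plasmacytoid dendritic cells, went from 31.6% ± 2.0 to 69.9% ± 4.3 (SD, 3 libraries each), and the summed level of the 3 genes stood at 511 ± 28 and 549 ± 21 CPM, with overlapping groups. Tcf3, the E2A gene, held 16.1% ± 2.2 and 15.7% ± 2.9, also overlapping.

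Among the RUNX genes, Runx1 held 70.9% ± 4.0 of the counts in the no Dox group and 36.6% ± 4.5 in the Dox group, and Runx3 26.4% ± 2.7 and 60.6% ± 2.8 (SD, 3 libraries each). Summed with Runx2 they reached 151.5 ± 10.2 CPM in the no Dox group and 182 ± 9.8 CPM in the Dox group. Id3 held 83.8% ± 2.3 of the counts of Id1 to Id4 without Dox and 14.3% ± 6.7 with Dox, where Id2 had the largest share (44.2% ± 6.1) at a level that did not pass the test (log2 fold change 0.22, adjusted p = 0.489, edgeR). Tox went from 55.6% ± 5.0 to 18.5% ± 11.03 of the TOX family (SD, 3 libraries each). Ets1 alone among the falling genes gained in share, from 79.8% ± 1.4 to 87.9% ± 4.1 of the counts of Ets1 and Ets2, beside a log2 fold change of -1.38 for Ets2 (SE 0.28, adjusted p = 0.00272, edgeR). The shares of all 10 genes stayed apart between the groups, as did those of every relative in these families except Tcf3, Runx2 and Tox3. For each share that stayed apart the exact two-sided permutation p was 0.1, the smallest possible, and 0.114 after adjustment over 25 shares. Shares within a family are parts of a whole, so a fall of a member comes with a rise of its relatives.

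**Figure D3:**
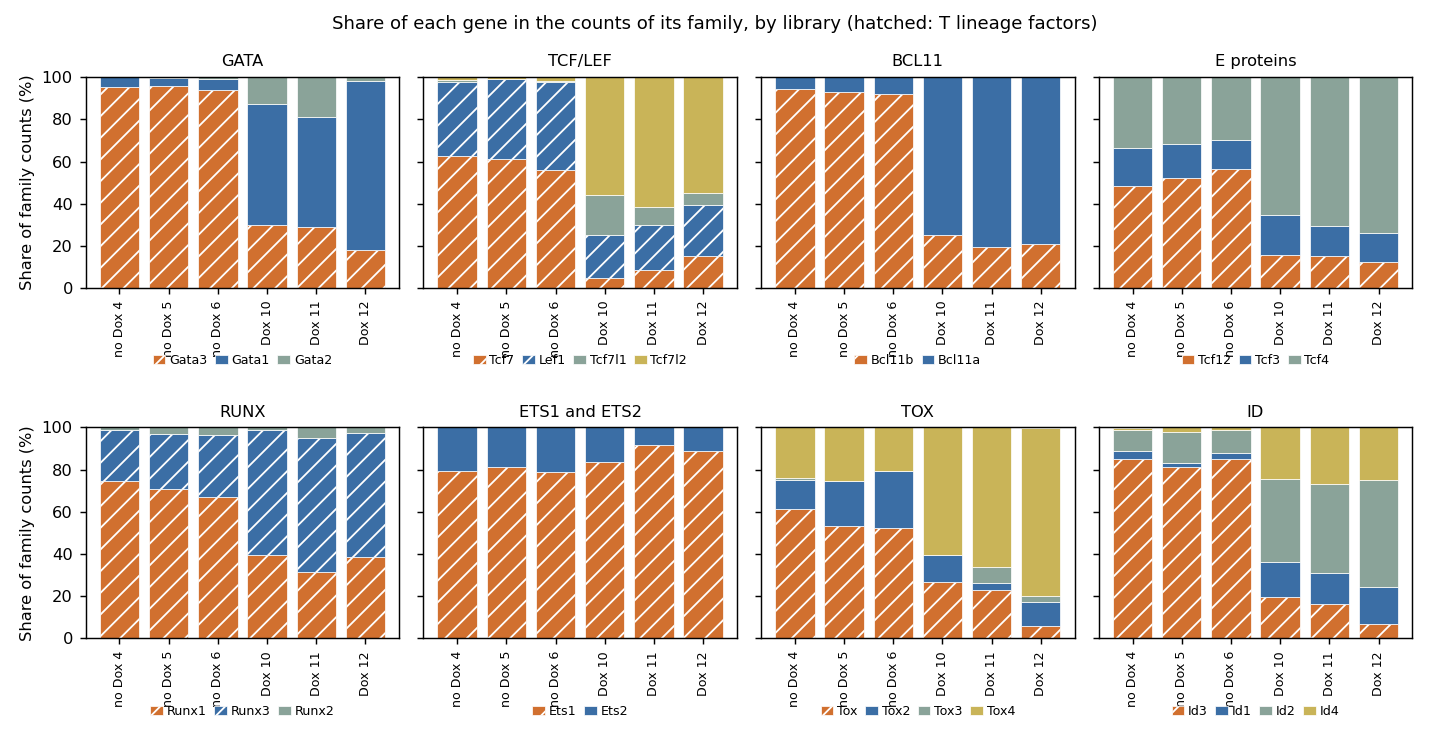
Percentage of family counts held by each gene in each of the 6 libraries, 1 panel per family, with the 10 T lineage factors hatched. The hatched genes held 92% or more of the GATA, TCF/LEF and BCL11 counts without Dox and under 40% with Dox, and in the RUNX panel Runx3 takes the place of Runx1 as the larger part.

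Because T cell markers differed between the groups, the counts of each factor were set against those of T cell markers in the same library. Per 100 counts of the 12 markers, Gata3 was at 19.4, 22.4 and 20.8 without Dox and 3.82, 2.92 and 3.21 with Dox. Tcf7 was at 36.0, 32.6 and 29.4 without Dox and 2.13, 3.28 and 11.2 with Dox. Gata3 and Tcf7 were thus lower with Dox in every library by this measure too, with means 6.29-fold and 5.90-fold lower. The Tcf7 value rests on Dox replicate 12: without it, chosen after seeing the data, the means were 12.1-fold lower for Tcf7 and 6.19-fold lower for Gata3. In all, 4 of the 10 (Gata3, Tcf7, Lef1 and Id3) had every Dox library below every library without Dox, where 1.74% of tested genes did. A further 4 (Tcf12, Runx1, Runx3 and Ets1) had every Dox library above, as did 83.1% of tested genes, and Bcl11b and Tox overlapped. Tox lay above without Dox replicate 12, and Bcl11b without Dox replicate 11. No exact permutation p over 3 against 3 libraries could fall below 0.1.

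The marker sum was not made up alike in the 2 groups. Cd2, which mouse B cells also express, gave 5.86% to 6.25% of it without Dox and 35.6% to 49.1% with Dox. Against the 4 CD3 chain genes alone, with 4539 to 6478 counts per library without Dox and 448 to 566 with Dox, 2 of the 10 genes were lower with Dox, where 1.04% of tested genes were. They were Gata3, at 43.4, 49.9 and 45.6 counts per 100 CD3 chain counts without Dox and 17.1, 14.5 and 11.8 with Dox, and Tcf7, at 80.4, 72.5 and 64.5 without Dox and 9.54, 16.3 and 41.3 with Dox. Both were lower in each Dox library, 3.20-fold for Gata3 and 3.24-fold for Tcf7, and 2.93-fold and 5.62-fold without Dox replicate 12. Lef1 was at 45.5, 45.1 and 48.3 per 100 without Dox and 38.4, 41.3 and 65.4 with Dox, Id3 at 29.6, 31.4 and 32.7 and at 32.4, 37.8 and 9.60, and Tox at 9.08, 8.20 and 9.52 and at 22.1, 31.4 and 7.37. The groups overlapped for all 3 genes, and Dox replicate 12 stood apart in each. Without it, both Dox libraries were below every library without Dox for Lef1 and above for Tox, while Id3 still overlapped. The mean of Lef1 with Dox then turned from 1.05-fold higher to 1.16-fold lower. Bcl11b, at 41.6 ± 0.9 and 88.8 ± 9.0, was higher with Dox by this measure, as were Tcf12, Runx1, Runx3 and Ets1 and 88.3% of tested genes. The direction of Bcl11b depended on the denominator. Set against the 8 T cell markers other than the CD3 chains, it was lower in each Dox library. Per 100 of their counts it was at 34.1 ± 1.3 without Dox and 26.8 ± 4.0 with Dox (SD, 3 libraries each). Cd2 gave 961, 1378 and 587 of the 1747, 2240 and 1203 counts of these 8 markers with Dox. Without Dox it gave 903, 592 and 756 of 7988, 5561 and 6587. A sum without Cd2 was not tested, so the direction of Bcl11b is not settled. Runx3 and Ets1 had the highest means with Dox, at 180 ± 28 and 352 ± 33 per 100 (SD, 3 libraries each).

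**Figure D4:**
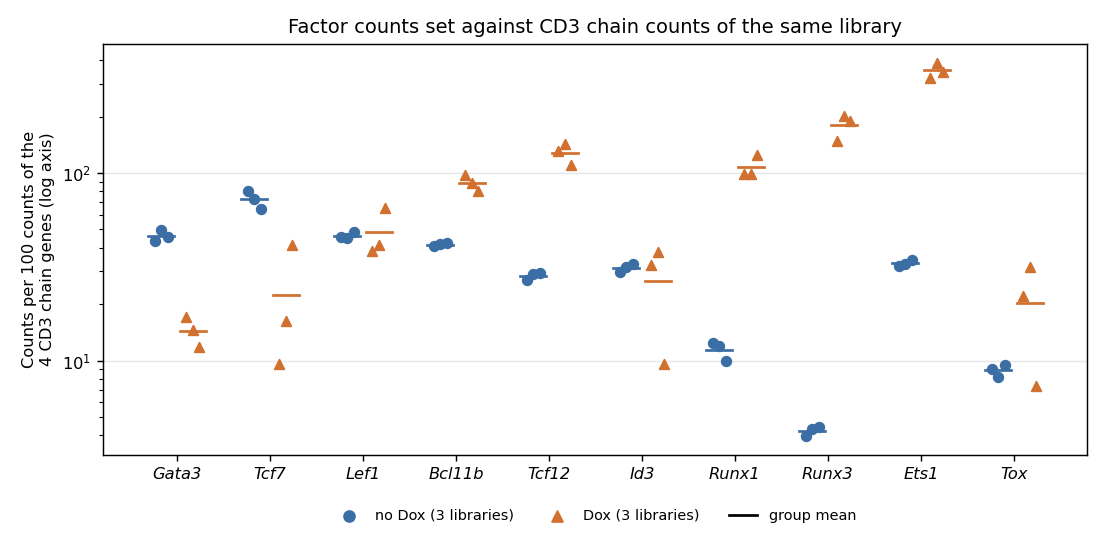
Counts of each gene per 100 counts of Cd3d, Cd3e, Cd3g and Cd247 in the same library (log axis), circles without Dox and triangles with Dox, with group means. Gata3 and Tcf7 lie lower with Dox, Lef1, Id3 and Tox overlap (Lef1 and Tox through Dox replicate 12 only), and the other 5 genes lie higher.

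Partners of the 10 factors were read from the same comparison. In a list of 19 partner and corepressor genes, 18 were tested, 9 passed lower and 2 higher (22.1% and 23.6% of all tested genes), and the median change was -0.82 in log2 terms. The RUNX partner Cbfb fell from 145 ± 20 to 25.4 ± 5.8 CPM (SD, 3 libraries each), a log2 fold change of -2.51 (SE 0.22, adjusted p = 1.85e-05, edgeR), so that it fell together with Runx1 while Runx3 rose. Ctnnb1, which encodes β-catenin, a coactivator of TCF and LEF factors, fell by 2.31 in log2 terms (SE 0.23, adjusted p = 3.56e-05, edgeR), and the chromatin organiser Satb1 fell by 2.62 (SE 0.18). The corepressor gene Tle4 rose by 2.74 on the log2 scale, from 11.5 ± 4.1 to 76.6 ± 4.7 CPM, and the GATA cofactor gene Zfpm1 by 1.95, from 152 ± 24 to 586 ± 97 CPM (SD, 3 libraries each).

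In a list of 30 T cell genes (receptor chains, signalling proteins, recombinase subunits and surface receptors), 25 passed lower and 2 higher, where 22.1% and 23.6% of all tested genes did, and their median log2 change was -3.02. Sh2d1a, Thy1 and Rag1, which encode a lymphocyte adaptor, a T cell surface protein and a recombinase subunit, had the lowest log2 fold changes among those named by rule, at -6.83, -5.72 and -5.23. Cd3d had a log2 fold change of -4.87 and went from 472.5 ± 3.8 to 16.1 ± 1.7 CPM (SD, 3 libraries each). The 2 that rose were Lat2 and Ccr7, an adaptor and a chemokine receptor that B cells also express, by 3.67 and 2.32.

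Of 30 other regulators of T lineage development, 7 passed lower and 17 higher; the share lower was near the 22.1% of all tested genes, and 23.6% of these were higher. The Ikaros family gene Ikzf2, the receptor gene Notch1 and the repressor gene Gfi1 had log2 fold changes of -3.38, -3.21 and -3.21. Their SE were 0.19, 0.21 and 0.88. The Gfi1 value was thus the least certain (adjusted p = 0.0137, edgeR), from 51, 0 and 22 counts with Dox. Mef2c, a factor of B cells and early progenitors, rose by 4.78, from 23.8 ± 1.5 to 656 ± 106 CPM (SD, 3 libraries each), and Rora and Foxo1 rose by 2.10 and 1.68. Among 14 tested relatives of the 10 genes, 2 passed lower (Tox2 and Ets2) and 4 higher (Bcl11a, Tcf7l2, Id4 and Tcf4), with a median of 0.63. These 6 of 14 were near the 45.6% of all tested genes that passed, so the count is no result about the relatives. With scaling by library size only, 2 passed lower and 7 higher.

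Factors of other lineages were set against the 23.6% of tested genes that passed higher and the 22.1% that passed lower. B lineage factors were higher in 12 of 14 cases and lower in 0, and their median log2 change was 2.40. Ebf1 and Pax5, which specify and maintain B cell identity, rose by 6.22 and 5.08 on the log2 scale (adjusted p = 9.87e-07 and 5.37e-07, edgeR), to 393 ± 64 and 504 ± 80 CPM (SD, 3 libraries each), above each of the 10 T lineage factors in the same libraries. Myeloid factors were higher in 8 of 14 cases and lower in 2, with a median of 1.5, and included Irf8, at 31.8 ± 6.0 and 563 ± 50 CPM (SD, 3 libraries each). Erythroid factors were higher in 7 of 10 cases and lower in 0, with a median of 1.15. Of this list, Bcl11a, Gata1, Ldb1, Lmo2, Tal1 and Zfpm1 are also counted in the other lists. Gata1 (0.13, adjusted p = 0.754) and Klf1 (0.34, adjusted p = 0.155, edgeR), which encode the main erythroid factors, did not pass. Of the B lineage list, 2 did not pass the test at a log2 fold change of 0.52 (Bcl6) and -0.08 (Klf3).

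**Figure D5:**
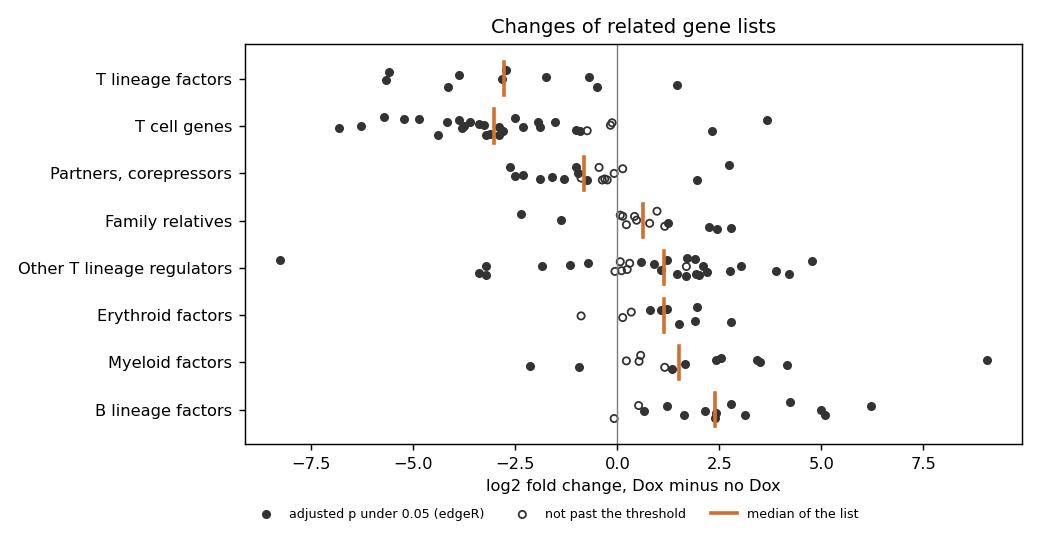
Log2 fold change with Dox against no Dox of each tested gene (filled where the edgeR adjusted p was under 0.05), 1 row per list, with the list's median as a bar. Medians run from -3.02 for T cell genes and -2.78 for the 10 factors to 2.40 for B lineage factors.

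The genes whose levels over the 6 libraries were most like those of a member were named by Pearson's r of log2 CPM, which the gap between the 2 groups largely sets. Lef1 was most like Lck (r = 0.9996), the kinase gene of T cell receptor signalling, followed by Tmem126a (r = 0.9996). Gata3 was most like Nme2 (r = 0.9999), Tcf7 most like Eif3f (r = 0.9996), Bcl11b most like Dnaja1 (r = 0.9996), and Runx3 most like Rsad2 (r = 0.9998), an interferon-induced gene. Id3 was most like Plac8 (r = 0.9994). Counts of Tcf7 could include reads of Skp1, whose RefSeq span overlaps it, since the strand setting of the counting is not given. Skp1 had 480 to 588 counts without Dox and 80 to 220 with Dox, against 3292 to 5206 and 48 to 185 for Tcf7. The span of Tox holds the non-coding gene Gm11802, which had 29 to 63 counts without Dox and 14 to 47 with Dox, against 372 to 588 and 33 to 178 for Tox.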

How the data were processed

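The authors deposited raw counts, 1 whole number per Entrez gene ID and library. Per the labels' protocols, poly(A) RNA was made into QuantSeq forward 3′ mRNA libraries, and per the submitters' processing notes STAR, featureCounts and GRCm38 were used, with versions, annotation, strand setting and treatment of shared reads not given in the sources used here. Counts are reads, so count floors cover counting error only. Groups and replicate numbers came from titles; all 6 columns matched and 0 were left over. Symbols and coordinates came from RefSeq for GRCm38.p6 (39374 of 40808 IDs, 96.5%).

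Genes were tested with edgeR 4.0.16 (R 4.3.3): filterByExpr (minimum count 10, total 15), TMM scaling, quasi-likelihood F-test, 6 libraries, no covariate, Benjamini-Hochberg adjustment over all 14110 genes, threshold 0.05. Standard errors were the log2 fold change over the root of F. On simulated counts for 14110 genes, 58.7% of 189 tested genes changed by 2 (log2) were called, all 111 in the simulated direction, and 11 of 13491 genes left unchanged were called. Gene lists (211 entries, all matched) came from general knowledge. All members are named, and from each related list up to 3 genes per direction with the largest change among those past the threshold, non-overlapping and at or above median level. Cd3d, Gata1, Klf1, Gzma, Nkg7, Xist, Tcf3, Tcf4, Id2, Bcl6, Klf3, Skp1, Gm11802, the markers at 0 and Cd2 were named after their values were seen, and the family shares were added then. The members and lists were chosen with earlier results of these data known. Alternatives were other scalings, filters, thresholds and tools (DESeq2 1.42.0, limma-voom 3.58.1), left-out genes or libraries, and other T cell denominators.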

Additional observations from a re-analysis of the deposited data

How the results depend on the processing

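No paired analysis was possible because replicate numbers (4 to 6 and 10 to 12) are not shared. Among the 10, 8 passed at an adjusted p under 0.05 with unchanged sign in all 15 alternatives; Runx1 and Ets1 kept their direction but lost the call with library size only, as did Runx1 without no Dox replicate 4. The number of genes lower with Dox was 9, and 7 with library size only or at an adjusted p under 0.01, while 1 was higher throughout. Leaving out each library in turn gave 8 to 9 lower. Per T cell marker count 4 were lower, 2 with the CD3 chains only and 5 with the 8 other markers. By these 8 Bcl11b was lower and not, as per CD3 chain, higher. With Dox, Cd2 gave 961, 1378 and 587 of their 1747, 2240 and 1203 counts, and a sum without Cd2 was not tested. Removing a trend of fold change with transcript length, chosen after seeing the data (85% of tested genes had a length), gave 9 lower and 1 higher; it moved Bcl11b from -2.82 to -3.49 and Id3 from -4.14 to -3.51 (log2), which closed the gap between them, Tcf12 from -1.75 to -2.25, Runx1 from -0.70 to -1.15 and Ets1 from -0.51 to -0.86. Of the related lists, library size only moved the relatives called higher from 4 to 7. The other T lineage regulators called higher ran from 12 to 18 over the alternatives (17 in the main fit). The T cell genes called lower ran from 21 to 25. The myeloid factors called lower went from 2 to 1 with library size only, at an adjusted p under 0.01 and without no Dox replicate 5, and 3 other counts of 2 or fewer moved by 1 in 1 alternative each. Library size only also moved the share of higher genes among all called from 51.6% to 64.3%. The lowest count behind a member was 33, so depth limits the Dox levels of Tox, Id3, Tcf7 and Gata3 most.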
